A study of Mus musculus with 6 samples.

Results

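The Scribble module of mouse pancreatic tumour organoids was followed through 10 genes of 3 families, out of 54453 genes in each deposited table. The genes were chosen by name: the LAP genes Scrib, Erbin, Lrrc1 and Lrrc7, the Dlg genes Dlg1, Dlg3, Dlg4 and Dlg5, and the Lgl genes Llgl1 and Llgl2. Each symbol matched 1 Ensembl gene of GRCm38. RNA was sequenced from 3 KPC organoid lines named T91, T113 and T118, a usual mouse model of pancreatic ductal adenocarcinoma, all with the genotype label KPF/FC, which the labels do not spell out, and all grown in Matrigel. Each line gave 1 library with an shRNA (short hairpin RNA) against Renilla, a luciferase gene that mouse cells lack, and 1 library with shRNA #5523 against Scrib. The control and the knockdown group thus hold 3 libraries each, paired by line. T91 is labelled female and was at passage 10. T113 (passage 13) and T118 (passage 11) are labelled male. The labels speak of viral infection in one place and transfected plasmids in another, and give no time between hairpin delivery and RNA extraction. A single hairpin was used against Scrib, so effects of that hairpin on other transcripts cannot be told apart from effects of losing Scrib. No line was sampled more than once per hairpin, so the residual spread behind the p-values below is that of the knockdown ratio between lines. The tests moderate that spread with the spread of other genes. In edgeR this gave 2 residual and a median of 4.43 prior degrees of freedom.

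Scrib, Dlg and Lgl proteins sit together at the basolateral side of epithelial cells. They hold back the apical Par and aPKC proteins, which in turn phosphorylate Lgl and push it off the membrane. LAP proteins carry leucine-rich repeats, in most members followed by PDZ domains that bind the tails of other proteins. Dlg proteins are scaffolds of the MAGUK type, and Lgl proteins carry WD40 repeats. Loss of any of the 3 families in fly epithelia disrupts polarity and lets tissue overgrow, which is why the module is studied in carcinomas. Because mammals have several genes per family, a knockdown of Scrib raises the question of whether a relative such as Erbin or Lrrc1 changes with it.

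The families are old duplicates, and their transcripts shared only short stretches on the same strand. Shown here are the longest such stretch within each family and the longest that Scrib shares with a relative. Only a read lying wholly within a shared stretch cannot be assigned to 1 gene. The stretches are written in the direction of the transcript, wholly in lower case since no part stands out.
Dlg1 and Dlg4: tttggatcctgtgtccctcatac
Llgl1 and Llgl2: gtgcggttctgggacgcctc
Erbin and Lrrc7: tacaagaatttccagaaaa
Scrib and Lrrc1: tttcccagaacttgct
The Dlg1 and Dlg4 run was 23 bases long, the longest on the same strand between any members of the same family, and the one shared by Scrib and Lrrc1 was 16 bases long. Dlg3 and Dlg4 shared 2 runs of 20 bases, which are not printed. None of the 6642 different 31-base words in Scrib transcripts occurred in a transcript of another gene on either strand, and the same held for Erbin, Lrrc1, Dlg3 and Llgl2. Of the other members, Dlg4 shared 3.54% of its words with other genes, Dlg5 1.17%, Dlg1 1.07%, Lrrc7 0.939% and Llgl1 0.699%. Dlg1 and Dlg4 shared 27 words on opposite strands, so without a known strand setting those reads could be confused over more than 23 bases. The Llgl1 words were shared with Flii, a protein-coding gene on the opposite strand whose exons cover 1.32% of the Llgl1 exon bases. Flii was abundant, with between 3144 and 5334 estimated counts per library, and no strand setting is given, so a small part of the Llgl1 reads could belong to it.

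The LAP genes also differed in the sequence before their annotated start. The windows below hold the 250 bases before the RefSeq start (GRCm38.p6, strand of the gene), with every CG, the dinucleotide that can be methylated, in capitals. They are shown because Erbin and Lrrc1 were expressed in every library while Lrrc7 was at 0 counts in all of them.
Erbin, chr13:103920587-103920836, minus strand: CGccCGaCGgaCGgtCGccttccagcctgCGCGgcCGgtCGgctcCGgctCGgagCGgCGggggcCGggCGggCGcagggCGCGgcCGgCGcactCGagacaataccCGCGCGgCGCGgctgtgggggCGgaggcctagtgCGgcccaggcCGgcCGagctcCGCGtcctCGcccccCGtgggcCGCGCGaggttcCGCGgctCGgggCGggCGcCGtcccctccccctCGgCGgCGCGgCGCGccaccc
Lrrc1, chr9:77544853-77545102, minus strand: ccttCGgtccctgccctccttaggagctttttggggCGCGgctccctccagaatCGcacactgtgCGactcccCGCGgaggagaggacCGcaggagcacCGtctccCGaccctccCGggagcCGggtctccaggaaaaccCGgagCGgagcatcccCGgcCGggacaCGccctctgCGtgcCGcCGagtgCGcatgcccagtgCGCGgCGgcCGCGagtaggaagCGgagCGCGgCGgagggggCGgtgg
Lrrc7, chr3:158561762-158562011, minus strand: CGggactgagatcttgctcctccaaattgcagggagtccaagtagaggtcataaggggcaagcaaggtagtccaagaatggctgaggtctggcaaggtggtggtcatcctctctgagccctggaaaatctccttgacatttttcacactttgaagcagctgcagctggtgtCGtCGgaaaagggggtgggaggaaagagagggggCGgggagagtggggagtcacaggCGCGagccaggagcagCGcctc
The Erbin window held 49 CG, more than 99.9% of the 32851 windows of this length in the RefSeq table, and the Lrrc1 window shown held 31, more than 94.8%. A further annotated Lrrc1 start had 11. Lrrc7 had 7 CG, close to the median of 6 over all windows, of which 92.1% hold at least 1 CG. A promoter entry was found for 8 of the 10 genes and not for Scrib and Llgl2. Among the other genes with 1 entry, Llgl1 had 15 CG and Dlg5 had 6. CG number and expression did not go together throughout, since Dlg5 was well expressed with fewer CG than Lrrc7. Expression data alone do not show the methylation or use of these windows.

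Libraries held between 24035265 and 36235481 rounded counts, so that 1 count was worth 0.0276 to 0.0416 CPM (counts scaled to the library total). Ductal epithelial markers matched the label: all 8 genes of that list (Epcam, Krt7, Krt8, Krt18, Krt19, Cdh1, Sox9 and Cldn4) were detected, with a summed level of 7946 to 12998 CPM in control and 7248 to 10414 CPM in knockdown libraries. Markers of other cells, apart from Mbp, were near 0 in sum. The fibroblast list (7 genes, Lum at 0 throughout) stood at 1.11 to 1.70 CPM in control and 1.37 to 7.56 CPM in knockdown libraries. The value of 7.56 CPM was that of T91, while in T113 the sum was lower after knockdown (1.70 and 1.37 CPM). The 2 genes of this list that passed the filter, Col1a1 and Col1a2, were higher in all 3 lines with unadjusted p under 0.05 by edgeR and no call after adjustment. Of the others, Col3a1 went from 0.234 to 2.02 CPM in T91 but from 0.273 to 0.110 CPM in T118. Pdgfrb went from 0.969 to 0.130 CPM in T113. The part of fibroblast RNA in the results below was not tested. The immune list stood at 3.28 to 4.50 and 2.21 to 5.63 CPM. The neuronal list (6 genes) stood at 0.670 to 1.399 and 0.756 to 1.499 CPM. The endothelial list stood at 0.201 to 1.26 and 0.130 to 1.61 CPM, the acinar list at 0.648 to 0.834 and 0.402 to 0.714 CPM, and the endocrine list at 0.0335 to 1.26 and 0 to 1.46 CPM. The Schwann list reached 73.1 to 105 CPM over all libraries through Mbp, while its defining gene Sox10 was at 0 in all 6.

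Scrib, the target and the founding LAP gene, codes for a large PDZ scaffold and lies on chromosome 15, minus strand (GRCm38, 76047158 to 76069784). In the control libraries it stood at 177, 157 and 158 CPM in T91, T113 and T118. With the Scrib hairpin it stood at 29.7, 34.9 and 30.0 CPM in T91, T113 and T118. Here and below CPM is scaled by TMM unless said otherwise. The lowest control was more than 4 times the highest knockdown library, and the 3 lines were alike in both states. Scrib fell to 16.8% of its control level in T91, 22.3% in T113 and 19.0% in T118. On the log2 scale the ratio was -2.57 in T91, with a 95% counting interval from -2.68 to -2.46. In T113 it was -2.17 (-2.26 to -2.07) and in T118 -2.39 (-2.50 to -2.29). The interval of T113 lay above those of both other lines, so the residual Scrib differed between these libraries by more than counting error, which could not be tested with 1 library per line and hairpin. The fit over the 3 lines gave a log2 fold change of -2.38 ± 0.12 (standard error, 95% interval -2.65 to -2.10, adjusted p = 0.00582 by edgeR's quasi-likelihood test). In bulk RNA, fewer cells with Scrib transcript and less transcript per cell cannot be told apart.

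**Figure D1:**
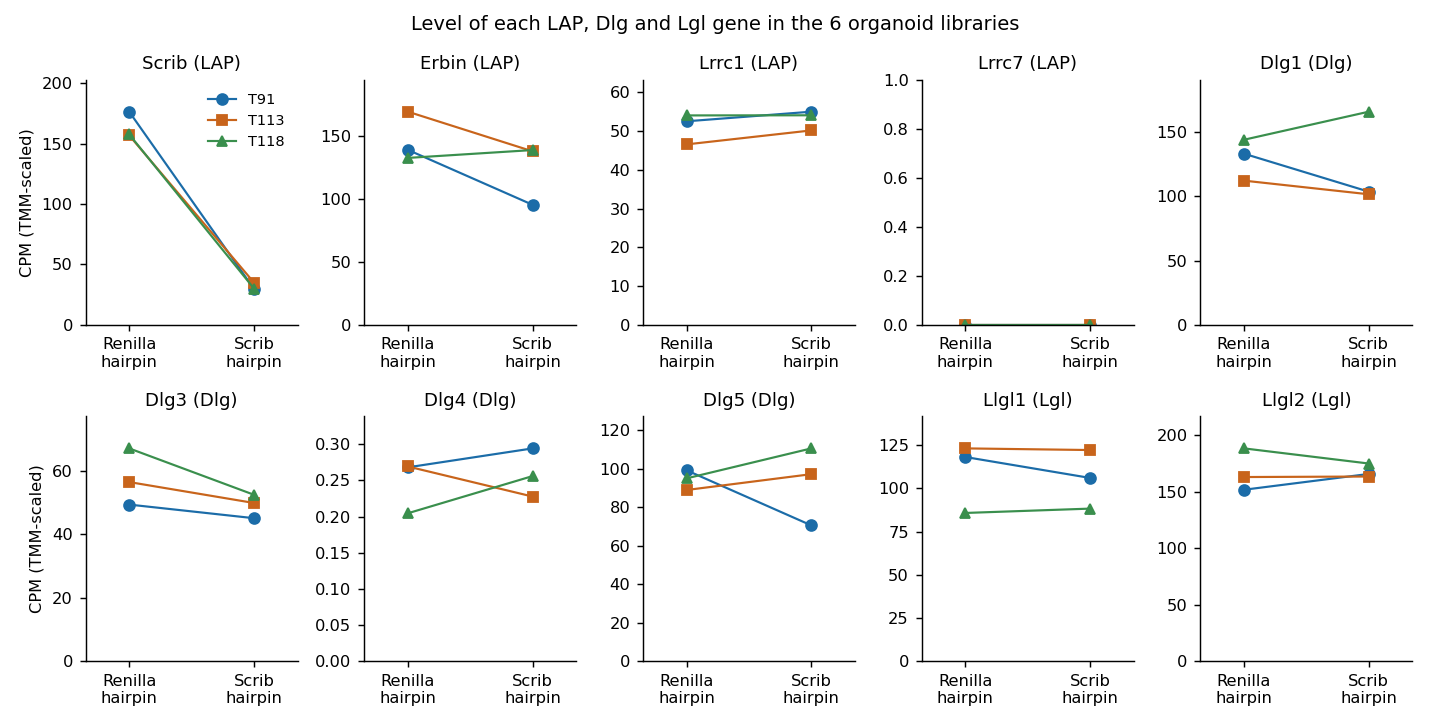
Level of each of the 10 genes in TMM-scaled CPM (each panel has its own linear scale from 0) with the Renilla and the Scrib hairpin, 1 point per library, lines joining the libraries of an organoid line. Scrib drops from between 157 and 177 CPM to between 29.7 and 34.9 CPM, while Dlg3 is lower in all 3 lines. Lrrc1 is slightly higher in T91 and T113 and nearly level in T118, and the other detected genes run in mixed directions.

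Of the 8 members that passed the low-count filter, Scrib alone passed an adjusted p of 0.05. Over all 14169 genes tested the share called was 0.00706%, which is 1 gene, Scrib itself. The count of the other members that passed was 0 of 7 by edgeR's quasi-likelihood test, also 0 by DESeq2 and by limma-voom, and 0 of them had an unadjusted p under 0.05 (6.61% of all genes did, 5.06% lower and 1.55% higher). Their log2 fold changes ran from -0.26 to 0.06 with a median of -0.05, beside -0.01 over all genes tested. No more than 1 of the 7 was lower in all 3 lines, Dlg3, and 1 was higher in all 3, Lrrc1, where 15.4% and 14.8% of all genes were so.

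Erbin, the LAP protein that binds the receptor ERBB2, was per length the most abundant relative of Scrib in the family. In control libraries it stood at 139, 169 and 132 CPM in T91, T113 and T118. After knockdown it stood at 95.1, 138 and 139 CPM in T91, T113 and T118. The groups overlapped, and the direction was not shared: the knockdown library was the lower one in T91 and T113 and marginally the higher one in T118. Within lines the log2 ratio was -0.54, -0.30 and 0.07 in that order. Fitted over lines it was -0.26 ± 0.13 (standard error, 95% interval -0.58 to 0.06, adjusted p = 0.779 by edgeR).

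Lrrc1, also called Lano, is a LAP protein with leucine-rich repeats but no PDZ domain. Its control libraries stood at 52.5, 46.6 and 54.0 CPM in T91, T113 and T118, and its knockdown libraries at 55.0, 50.2 and 54.1 CPM. The groups overlapped, and the SD of its log2 ratio over the lines, 0.05, was the lowest of the tested members. The log2 fold change was 0.06 (standard error 0.09, 95% interval -0.16 to 0.28, adjusted p = 0.899 by edgeR). Lrrc7, which encodes densin, a postsynaptic LAP protein of neurons, had 0 counts in each of the 6 libraries. A count of 0 allows a level of up to 0.0807 to 0.126 CPM per library (3 counts, counting error only), so it could not be tested.

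Among the Dlg genes, Dlg3, which lies on the X chromosome, came closest to the threshold. Its control libraries stood at 49.4, 56.5 and 67.1 CPM in T91, T113 and T118, and its knockdown libraries at 45.1, 49.9 and 52.5 CPM. The knockdown library was the lower one of each line, but the groups overlapped because T118 exceeded T91 throughout. Its fitted log2 fold change came to -0.22 ± 0.10 (standard error, 95% interval -0.45 to 0.01, adjusted p = 0.770 by edgeR). The line with the lowest Dlg3, T91, is the only female one, so sex and line cannot be told apart for this X-linked gene.

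Dlg1, the closest vertebrate counterpart of the fly tumour suppressor discs large, stood at 133, 112 and 144 CPM in T91, T113 and T118 in control libraries. After knockdown it stood at 104, 102 and 166 CPM. T118 was the highest line in both states, and its ratio went the opposite way from those of the other lines. The log2 ratios were -0.36, -0.14 and 0.20 in T91, T113 and T118, and the fitted fold change was -0.10 (standard error 0.13, adjusted p = 0.878 by edgeR). Dlg5, a larger scaffold that also supports cadherin delivery to the membrane, stood at 99.3, 89.1 and 95.1 CPM in control and 70.7, 97.3 and 111 CPM in knockdown libraries of T91, T113 and T118. The knockdown libraries thus included both the lowest and the highest of the 6 values. Dlg5 had log2 ratios of -0.49, 0.13 and 0.22 in that order and a fitted fold change of -0.05 (standard error 0.15, adjusted p = 0.961 by edgeR). Dlg4, the main scaffold of excitatory synapses, was barely detected, at between 0.205 and 0.294 CPM, or 6 to 10 counts per library. It did not pass the low-count filter, and in a fit without that filter its log2 fold change was 0.04 with a 95% interval from -1.24 to 1.33.

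In the reported fit the Lgl genes had the 2 fitted values nearest 0, with Dlg5 (-0.046) next to Llgl1 (-0.042). With length classes removed, as described below, Dlg1 (0.0033) lay nearer 0 than Llgl1 (-0.0069). Llgl1 stood at 118.1, 123 and 85.7 CPM in T91, T113 and T118 with the Renilla hairpin, and at 106, 122 and 88.2 CPM with the Scrib hairpin. Both T118 libraries lay below all 4 others, whichever hairpin they carried. Its log2 fold change was -0.04 (standard error 0.09, 95% interval -0.27 to 0.18, adjusted p = 0.936 by edgeR). Llgl2 stood at 152, 163 and 188 CPM in control and 166, 163 and 175 CPM in knockdown libraries of T91, T113 and T118, and its fold change was 0.01 (standard error 0.10, 95% interval -0.22 to 0.24, adjusted p = 0.987).

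**Figure D2:**
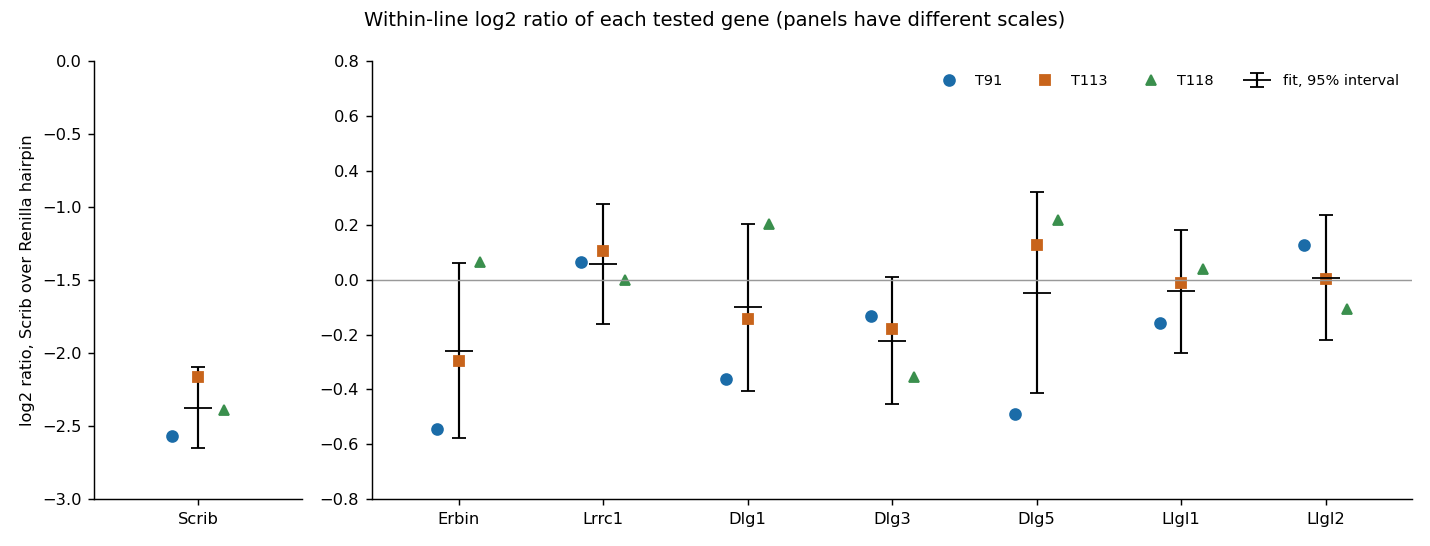
Log2 ratio of the Scrib hairpin over the Renilla hairpin within each line (coloured points) for the 8 tested genes, with the fitted log2 fold change and its 95% interval in black; Scrib has its own panel and scale. Scrib lies at -2.38, and the intervals of the 7 other genes all include 0.

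The ratios of Erbin, Dlg1 and Dlg5 were lowest in T91 and highest in T118. A trend with transcript length ran through the libraries in the same order. Among the 1751 tested genes whose longest annotated transcript exceeds 6000 bases, the median log2 ratio was -0.36, -0.05 and 0.10 in T91, T113 and T118. Among the 3891 genes with transcripts of up to 2000 bases it was 0.20, 0.03 and -0.07. Erbin (6369 bases), Dlg1 (6143 bases) and Dlg5 (7851 bases) are the 3 tested members in the longest class. Once the median of its length class was subtracted, the ratio of Erbin was -0.18, -0.25 and -0.03 in T91, T113 and T118. For Dlg1 the same values were 0.00, -0.10 and 0.11, and for Dlg5 they were -0.13, 0.17 and 0.12. For these 3 members the differences between lines were thus smaller relative to genes of like length. For Dlg3 and Lrrc1 they were larger. The corrected ratio of Dlg3 was -0.003, -0.16 and -0.39 in T91, T113 and T118. That of Lrrc1 was 0.19, 0.12 and -0.04, so with this correction Lrrc1 was not higher in all 3 lines. In an edgeR fit with these class medians as offsets, Scrib remained the only member called, at a log2 fold change of -2.34 (adjusted p = 0.00170), and Erbin had -0.15 (adjusted p = 0.675). This correction was chosen after the data were seen, and what gave rise to the length trend was not tested.

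Levels of different genes were compared per length, as CPM per kilobase of annotated exon. In control libraries the order from high to low was Llgl2 with 34.6 ± 3.86, Scrib with 25.4 ± 1.72, Llgl1 with 22.4 ± 4.16, Erbin with 18.5 ± 2.47, Dlg1 with 12.1 ± 1.51, Dlg5 with 11.1 ± 0.606, Dlg3 with 9.86 ± 1.52 and Lrrc1 with 6.23 ± 0.482 CPM per kilobase (SD, n = 3 lines each). Dlg4 was at 0.0187 ± 0.00279 CPM per kilobase and Lrrc7 at 0. The ranges of neighbours overlapped for Scrib and Llgl1, for Llgl1 and Erbin, and among Dlg1, Dlg5 and Dlg3, so those are not ordered by range. Compared within each control library, Llgl1 lay above Erbin and Dlg1 above Dlg3 in all 3 lines. The order of Scrib and Llgl1, of Dlg1 and Dlg5, and of Dlg5 and Dlg3 differed between lines. Llgl2 lay above all others, and Lrrc1 below the other 7 tested members, in each control library. By level per length, Scrib exceeded 82.6% and Llgl2 87.7% of the tested protein-coding genes, while Lrrc1, at 47.2%, was near the middle.

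The order depends in part on the length used. With the longest annotated transcript in place of all exons, Lrrc1 (11.9 CPM per kilobase) came before Dlg3 (11.5). With the mean length of coding transcripts, Dlg1 (33.7) came before Llgl1 (25.4) and Erbin (25.3). Llgl2 kept the first and Scrib the next place under all 3 lengths. After knockdown Scrib dropped from rank 2 to rank 8 of the 10 genes under all 3 lengths, behind every tested member. It then stood at 4.89 ± 0.456 CPM per kilobase, below Lrrc1 with 6.48 ± 0.313 (SD, n = 3 each), and below it in each of the 3 lines.

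Within the LAP family Scrib supplied 53.4% of the summed level per length in T91, 47.4% in T113 and 51.3% in T118 with the Renilla hairpin. With the Scrib hairpin it supplied 19.8%, 18.8% and 16.2%. Erbin went from 34.1% to 51.4% of the sum in T91, from 41.5% to 60.0% in T113 and from 34.9% to 60.8% in T118, and so became the main LAP transcript in all 3 lines by this length. With the mean length of coding transcripts Lrrc1, at 45.7% of the sum, exceeded Erbin, at 35.7%, in the T91 knockdown library. Lrrc1 went from between 11.1% and 13.8% to between 21.2% and 28.8%. The shares of Erbin and Lrrc1 hold the loss of Scrib in their denominator, and their own levels did not pass a test. Scrib transcripts were 1.57 times as abundant per length as those of Erbin in T91, 1.14 times in T113 and 1.47 times in T118 before knockdown, and 0.384, 0.313 and 0.266 times after it.

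Set against the loss of Scrib, the relatives' differences were small or in the same direction. Scrib fell by 22.8 CPM per kilobase in T91, fell by 18.9 in T113 and fell by 19.8 in T118. The sum of Erbin, Lrrc1 and Lrrc7 differed by -5.19, -3.52 and 0.791 CPM per kilobase in T91, T113 and T118. In T118 the gain equalled 3.99% of the loss of Scrib, and in the other lines the sum was lower, through Erbin, while Lrrc1 was higher by 0.303 CPM per kilobase in T91 and by 0.440 in T113. The summed LAP level thus went from 50.1 ± 2.05 to 27.0 ± 3.17 CPM per kilobase (SD, n = 3 each). On the log2 scale the sum of the relatives differed by -0.17 ± 0.20 (mean and SD of 3 lines), which is within its spread between lines. The sums were not tested.

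The intervals of the fit limit how large a rise could have been missed. The upper 95% bound for Erbin was 104% of its control level, a gain of 0.796 CPM per kilobase or 3.89% of the mean loss of Scrib. For Lrrc1 it was 121%, a gain of 1.31 CPM per kilobase or 6.41% of the loss, and 10.7% with the longest transcript and 10.8% with the mean coding length. Among the other families the upper bound was 115% of control for Dlg1, 101% for Dlg3, 125% for Dlg5, 114% for Llgl1 and 117.9% for Llgl2. As a share of the loss of Scrib these gains were 9.07%, 0.359%, 13.6%, 14.8% and 30.2% in that order. With the mean coding length that of Llgl2 was 56.7%, that of Dlg1 13.6% and that of Llgl1 9.05%, and with the longest transcript that of Dlg1 was 13.8%. These bounds concern transcript levels, and protein was not measured here.

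**Figure D3:**
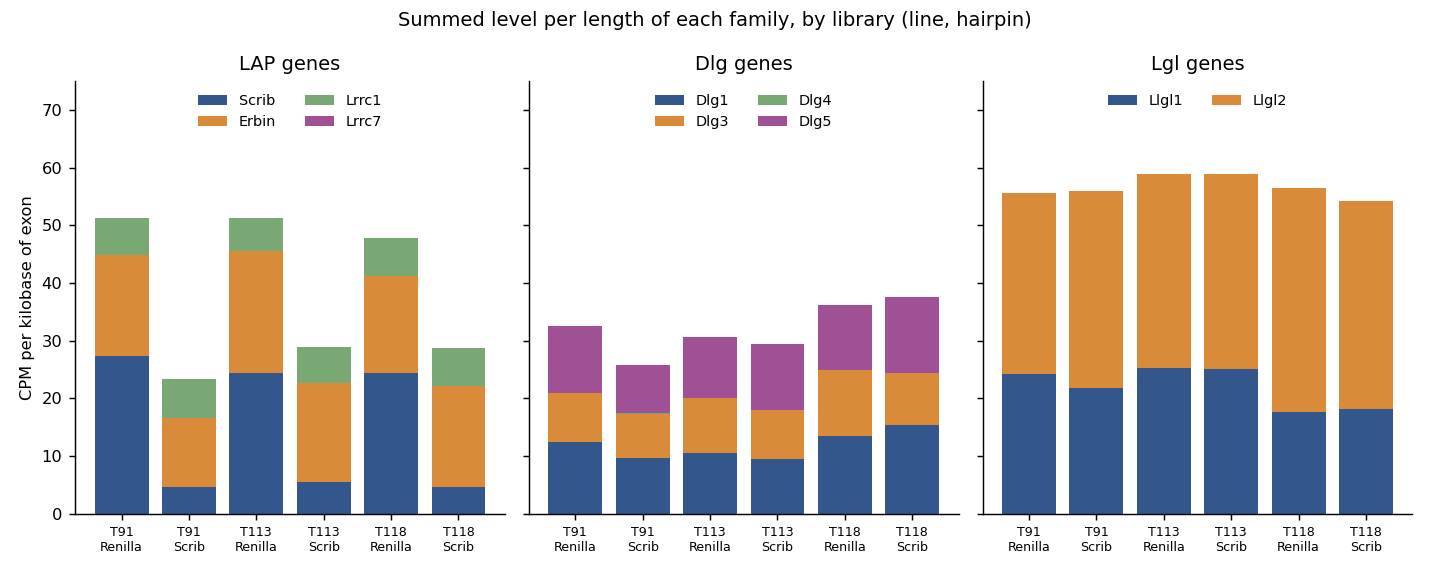
Stacked CPM per kilobase of exon for the LAP, Dlg and Lgl genes in each library, in pairs of Renilla and Scrib hairpin per line. The LAP sum drops through the Scrib segment, while the Erbin and Lrrc1 segments do not grow to fill it and the Dlg and Lgl sums stay between 25.7 and 37.5 and between 54.2 and 58.9 CPM per kilobase.

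The sums of the other families differed less. The summed Dlg level was 33.1 ± 2.78 in control and 30.9 ± 6.02 CPM per kilobase in knockdown libraries, and the log2 ratio within lines was -0.34, -0.06 and 0.05 in T91, T113 and T118. The sum in T91 holds the low Dlg1 and Dlg5 values of its knockdown library. Dlg1 made up 36.5 ± 2.07% of the Dlg sum in control and 37.0 ± 4.59% in knockdown libraries, Dlg5 33.7 ± 2.49% and 35.3 ± 3.29%, and Dlg3 29.7 ± 3.31% and 27.6 ± 3.24%. These shares depend on the length used, and with the mean length of coding transcripts Dlg1 supplied 51.5 ± 2.14% of the Dlg sum in control libraries (SD, n = 3), as much as Scrib of the LAP sum (51.3 ± 2.29%). The summed Lgl level was 57.0 ± 1.73 and 56.3 ± 2.32 CPM per kilobase, with log2 ratios of 0.01, 0.00 and -0.06 in T91, T113 and T118. Llgl2, which is typical of epithelia, supplied between 56.3% and 68.8% of the Lgl sum in all 6 libraries. The ratio of Llgl2 to Llgl1 was 2.20 and 1.99 in the T118 libraries and between 1.29 and 1.57 in the others. With the mean length of coding transcripts Llgl2 supplied 82.5 ± 4.07% of the Lgl sum in control libraries (SD, n = 3), and its ratio to Llgl1 was 6.78 and 6.12 in the T118 libraries and between 3.97 and 4.83 in the others.

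The line accounted for most of the sum of squares of log2 CPM in 5 of the 8 tested members, and not in Scrib, Erbin and Dlg5. Such a share can be large where the spread itself is small. The share of all genes for which this holds was not computed, so it is not known whether these 5 stand out. For Scrib the hairpin accounted for 99.4% of the sum of squares of log2 CPM and the line for 0.138%. For Llgl1 the line accounted for 95.2%, for Lrrc1 80.5%, for Dlg1 76.1%, for Llgl2 75.4%, for Dlg3 55.5% and for Erbin 46.4%. For Dlg5 the line accounted for 35.97% and 62.6% lay in the remainder, the part of the knockdown ratio that differs between lines plus noise. In edgeR's joint test of the lines 0 of the 8 members had an adjusted p under 0.05, where 14.0% of all genes did. By limma-voom the count was 0 as well. Before adjustment 2 members had p under 0.05, Llgl1 (adjusted p = 0.0684 by edgeR) and Dlg1 (adjusted p = 0.118), where 29.5% of all genes did. In the contrast of T118 with T113, Llgl1 was lower in T118 by a log2 difference of -0.49 (adjusted p = 0.0453 by edgeR, 10.2% of genes called), with both T118 libraries under both T113 libraries. No other member was called there, and none was in T113 against T91 (6.06% of genes called) or T118 against T91 (11%). The p-values of the contrasts are adjusted over genes and not over contrasts.

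Products that bind or oppose the module were followed with a list of 41 genes, of which 38 passed the filter. None of them passed edgeR's test after adjustment (0 higher, 0 lower). Of the 38, 29 had a fitted value under 0 and 9 above 0, with a median log2 fold change of -0.07 beside -0.01 over all genes. The share under 0 was 76.3% in the list and 51.8% over all genes tested, before the length trend described above was removed. Before adjustment 6 genes, all lower, had p under 0.05, where 5.06% of all genes were lower by that rule. These 6 are the ones named here. Pard3, which joins aPKC in the apical complex that opposes Scrib, and its relative Pard3b had log2 fold changes of -0.25 (standard error 0.09) and -0.55 (0.11). Mpp2 and Cask, MAGUK proteins related to Dlg, had -0.98 (0.20) and -0.30 (0.09). Kif13b, a kinesin that binds Dlg1, had -0.39 (0.11), and Lpp, an adhesion protein that binds the PDZ domains of Scrib, had -0.53 (0.14). Their adjusted p ran from 0.554 to 0.748 by edgeR.

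Mpp2 was scarce, at 5.66, 6.46 and 5.28 CPM in T91, T113 and T118 in control and 3.36, 2.70 and 2.78 CPM in knockdown libraries. Its groups did not overlap, but it was named for its small p, and the share of all genes with separate groups was not computed. Pard3b stood at 16.1, 29.5 and 33.0 CPM in control and 10.2, 21.3 and 22.6 CPM in knockdown libraries. Within each line Pard3b was lower after knockdown, although T91 was the lowest line in both states. All 6 named partners have transcripts of more than 4000 bases, and 4 of them exceed 6000. With length-class medians removed as above, 5 of these 6 were still lower at an unadjusted p under 0.05, Cask missed that level, Myh10 was higher by the same rule, and 0 passed after adjustment. In that fit 5.22% of all genes were lower by the same rule. There the median log2 fold change of the 38 partners was -0.03, and the sign of some partners turned. Git2, Vangl1, Lin7c, Numa1, Pkp4, Stxbp5, Myh9, Prkcz and Patj went from under 0 to above it, and Crb3 went the other way. The share under 0 given above and the counts by group below thus hold only without length removal. By group, in the reported fit without length removal, 7 were lower and 3 higher among genes whose products bind Scrib directly or through another protein. The numbers were 9 and 2 for Dlg-binding and MAGUK adaptors and 4 and 0 for those binding Erbin. For Lgl relatives and partners they were 2 and 1, and for apical opponents 7 and 3. Among genes listed for binding to Scrib or its complexes, Git1, a scaffold that reaches Scrib through the exchange factor Arhgef7, had a log2 fold change of 0.16 and Arhgef7 one of 0.03, while Vangl2, a planar polarity receptor, had -0.43. None of these 3, picked after their values were seen, passed.

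**Figure D4:**
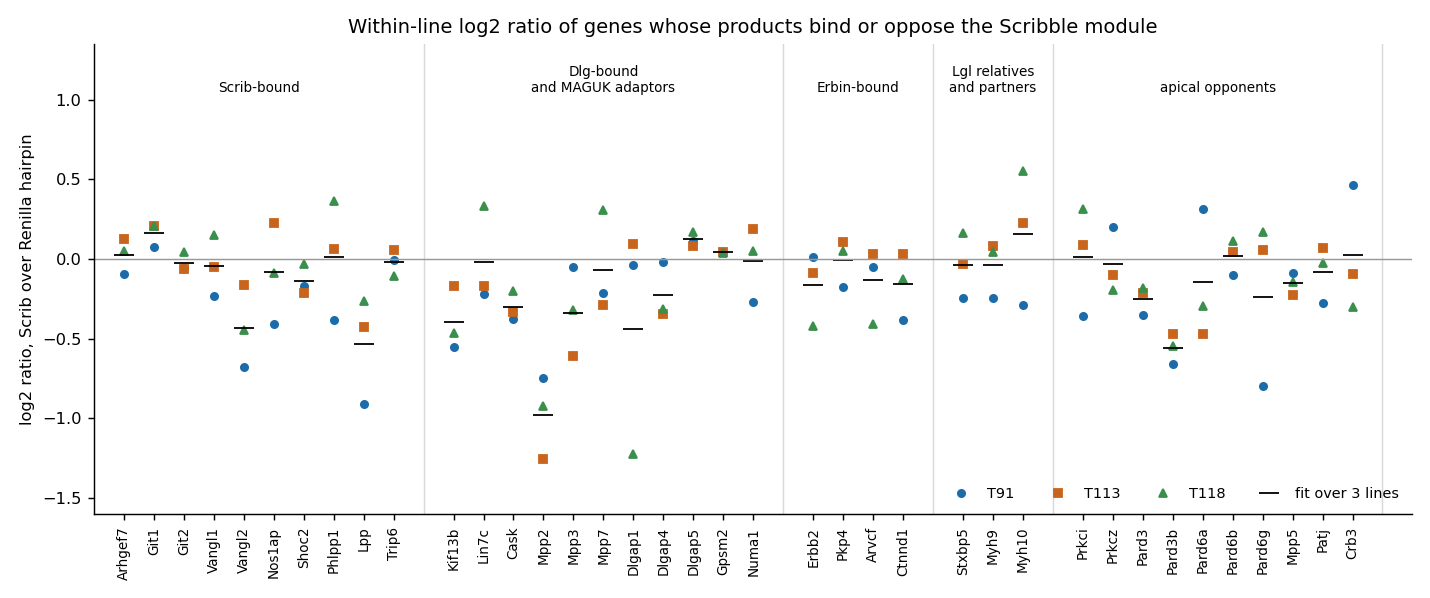
Log2 ratio of the Scrib over the Renilla hairpin in each line (coloured points) and the fitted value over lines (black dash) for the 38 tested partner genes, grouped by what their products bind. Points of the 3 lines spread to both sides of 0 for most genes. In all 3 lines 11 genes, Mpp2 and Pard3b among them, lie below 0 and 3 lie above it. Of all genes tested 15.4% and 14.8% do so.

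The genes outside the module with ratios most like those of Scrib were still far from it. They were sought among 10231 protein-coding genes with an average log2 CPM of at least 2. The 5 whose ratios in the 3 lines lay nearest those of Scrib were Fcgbp, Sytl2, 5330417C22Rik, Ano7 and Muc2, at Euclidean distances of 1.67 to 1.87 log2 units. Fcgbp, a protein of mucus, had log2 ratios of -1.89, -0.77 and -3.02 in T91, T113 and T118. Muc2, a gel-forming mucin, had -2.70, -0.41 and -3.04. None of the 5 passed the test (adjusted p from 0.598 to 0.770 by edgeR), and all 5 fell short of the Scrib ratio in T113, with values between -1.03 and -0.41.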

How the data were processed

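mRNA libraries of 6 organoid cultures were sequenced. Estimated counts, 1 per Ensembl gene and library, were deposited by the authors. Per the submitters' processing notes, making them involved Salmon 1.4.0, DESeq 2 and GRCm38 (mm10). The annotation and the strand setting were not given in the sources used here. Salmon shares reads among like transcripts, which can move counts between near copies.

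Counts were rounded and tested with edgeR 4.0.16 in R 4.3.3 (quasi-likelihood F-test, robust, terms for line and hairpin, TMM, filterByExpr with a minimum count of 10, Benjamini-Hochberg adjustment over 14169 genes). Standard errors come from the F statistic. GENCODE vM21 gave symbols (54200 identifiers matched, 253 did not) and exon lengths. Line pairs the samples by design, and deviations of same-line libraries correlated at 0.621, 0.666 and 0.662 in T91, T113 and T118. No libraries were identical. On simulated data with this design, 84.8% of genes changed by 1 log2 unit and 100% of those changed by 2 were recovered (13992 genes). The same run gave 8 false calls, and how far its recovery holds for the measured libraries was not tested. Alternatives used DESeq2 1.42.0 and limma 3.58.1, other scalings, filters and lengths, and lines left out. Depth per library limits counting error, which the within-line intervals alone cover (95%).

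Named were all 10 members, the 6 partners of smallest p and the 5 genes nearest to Scrib. Partners Git1, Arhgef7 and Vangl2 were named after their values were seen. Members and lists were chosen with earlier results of these data known.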

Additional observations from a re-analysis of the deposited data

Results flagged for a closer look

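For 4 members the ratio of the Scrib over the Renilla hairpin had opposite signs in different lines, each beyond its 95% counting interval. The share of all genes that meet this rule was not computed, so it is not known whether these members stand out. Counting intervals are narrow for genes with this many counts. With 1 pair of libraries per line, the differences between lines could not be tested. Erbin was higher in T118 than in T91 by 0.61 log2 units of ratio and than in T113 by 0.36. Dlg1 was higher in T118 than in T91 by 0.57 and than in T113 by 0.35. For Dlg5 the ratio in T113 exceeded that in T91 by 0.62, and in T118 by 0.71. Llgl2, the member with the shortest transcripts of the 4, went the other way, with a ratio in T118 minus that in T91 of -0.23. Ratios of all genes also moved with transcript length in these lines, as given above, and the part of that trend in these differences was not tested.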

How the results depend on the processing

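Scrib was called under all 12 alternatives run, with log2 fold changes from -2.48 to -2.28, and was the only member called in each. Without the replicate block (no line term) its value was -2.38, and that setting changed no call of a member. The count over all genes did depend on the method, at 1 in the reported fit, 64 without the low-count filter, 63 by DESeq2, 8 by limma-voom and 9 to 94 when a line was left out (94 without T91, 9 without T113, 25 without T118). Uncalled members near 0 changed sign. With a line left out, the log2 fold change of Dlg1 ranged from -0.255 (without T118) to 0.031 (without T91), that of Dlg5 from -0.182 to 0.173, that of Llgl1 from -0.0858 to 0.0153 and that of Llgl2 from 0.063 down to -0.0508, with the sign turned without T91 in each case. Erbin kept its sign and was -0.116 without T91 and -0.423 without T118. The log2 ratio of the summed relatives of Scrib was -0.0769 and -0.278 under the same settings, that of the Dlg sum -0.000614 and -0.198. That of Llgl2 was -0.0114 without the low-count filter, -0.00744 with an average CPM of at least 5 and -0.00123 with length classes removed, where Dlg1 had 0.00333 and Dlg5 0.0566. The cause was not tested. With the longest transcript as length, the share of Scrib in the LAP sum was 45.6% in control and 15.1% in knockdown libraries, beside 50.7% and 18.2%. No member passed the joint test of lines in any of the 5 settings, and the contrast of T118 with T113 for Llgl1 passed in all 5 (adjusted p from 0.0358 to 0.0477). Leaving out 1 library equals leaving out its line, since the partner then carries no information on the hairpin. The upper bounds and the Dlg and Lgl shares by other lengths were added after seeing the data.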
